A study of Mus musculus with 100 samples.

Results

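The effect of losing the corepressor NCoR on histone acetylation during TLR4 signaling was examined by comparing H3K27ac, an acetyl mark found at promoters and enhancers in use, in knockout (NKO) and wild-type (WT) bone marrow-derived macrophages (BMDMs) given Kdo2 lipid A (KLA), an agonist of TLR4. The comparison rested on 4 libraries, 2 NKO with KLA and 2 WT with KLA, of the 100 samples of the series. WT cells carried NCoR flox/flox alleles without Cre, and NKO cells carried NCoR flox/flox with LysMCre, a Cre knocked into Lyz2 and active in myeloid cells, so that the floxed alleles were common to both genotypes and the Cre allele was not. Deletion and the Cre allele therefore cannot be told apart. All were C57Bl6, and per the study's methods marrow came from mice of 8 to 12 weeks and was differentiated with M-CSF. KLA was given at 100 ng/mL for 6 h, and vehicle (Veh) libraries of both genotypes (2 each) came from the same experiment. The mark was counted as chromatin immunoprecipitation tags in 24867 regions of open chromatin. Of these, 18504 held 16 or more tags in at least 1 of the 8 libraries and were tested.

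NCoR is a large scaffold that nuclear receptors and other repressive transcription factors bring to DNA, where it holds the histone deacetylase HDAC3 together with TBL1-type subunits. Liver X receptors (LXRs), which sense oxysterols and turn on genes of cholesterol efflux, are classical partners of NCoR in macrophages. TLR4 signaling runs through NFκB, AP-1 and interferon regulatory factors, and the acetylation of their enhancers accompanies inflammatory gene expression.

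With KLA, 146 regions (0.789% of those tested) differed between the genotypes at an adjusted p under 0.05 and more than 2-fold. H3K27ac was higher in NKO at 74 of them (0.4%) and lower at 72 (0.389%). The higher regions included those at Abca1 and Abcg1, which code for exporters of cellular cholesterol and are targets of LXR. Others were at Tbl1xr1, a subunit of the NCoR complex itself, and at Bhlhe41, a repressor of the circadian clock. A further one was at Cebpa, a lineage factor of myeloid cells. The lower regions included those at Il21r, the receptor for interleukin 21, Prkcb, a protein kinase C, Nfkbia, the inhibitor IκBα, Csf3, the granulocyte growth factor G-CSF, and Ppard, a nuclear receptor for fatty acids. The median log2 difference was 1.63 over the higher regions (1.00 to 4.00) and -1.37 over the lower ones (-6.28 to -1.0). These values are those on which the regions were called. The median over all tested regions was -0.04, and 0.00 after centring on the median region. When centred, 94 regions were called higher and 63 lower, so the even split of the calls depended on the scaling.

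**Figure D1:**
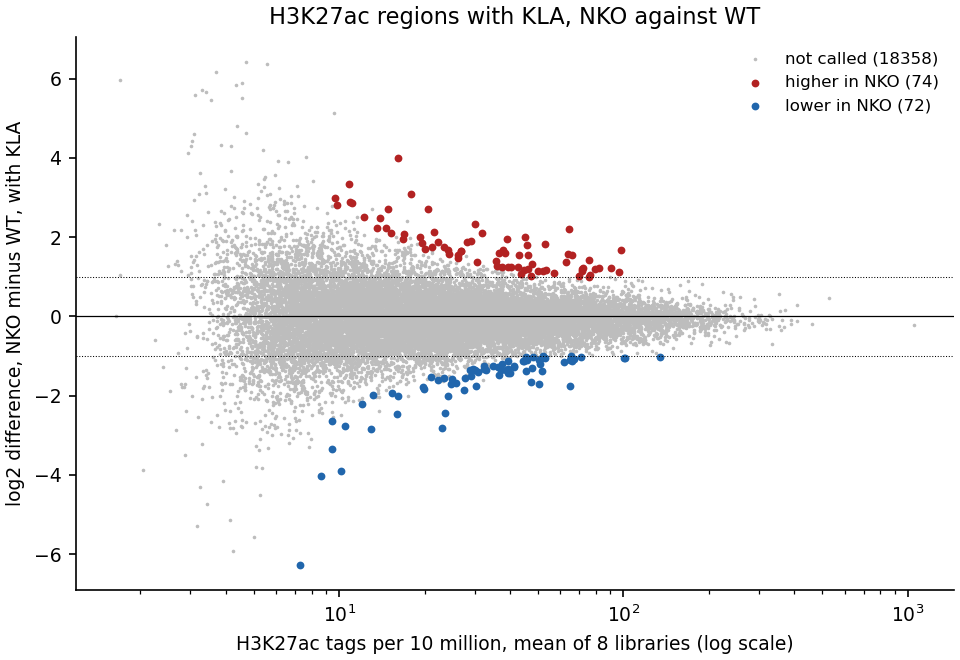
Each point is a tested region, with its mean H3K27ac over 8 libraries (tags per 10 M, log scale) against the log2 difference NKO minus WT with KLA. Called regions (74 red, 72 blue) lie outside the dotted lines of 2-fold, and those at low levels have larger differences than those at high levels.

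Whether a region could be called depended on its depth. Among the 6168 regions with the lowest levels the median standard error (SE) of the log2 difference was 0.74, 0.211% were called, and the called regions differed by a median of 7.35-fold. Among the 6168 with the highest levels these values were 0.26, 1.33% and 2.36-fold. None of the 402 regions whose highest library held 15 tags and none of the 392 with 16 tags was called. At the other limit, a region at Ctsz was just called (adjusted p = 0.050, log2 difference -1.14 ± 0.31) and one at Lrrc8d was not (adjusted p = 0.0520, -1.44 ± 0.40).

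To show the places at which the exporters and the inflammatory genes differed, the central 200 bases of 6 called regions are printed, read on the plus strand of GRCm38.p6 (the assembly of mm10, sequence from RefSeq). They are chr4:53158689-53158888 (Abca1), chr17:31066909-31067108 and chr17:31039693-31039892 (Abcg1), chr10:80940730-80940929 (Gadd45b), chr7:125630374-125630573 (Il21r) and chr12:55473821-55474020 (Nfkbia). Capitals mark letters that match a motif searched: AGGTCA of nuclear receptors, GAGGAA of PU.1, or the IRF motif.
Abca1 intron 1: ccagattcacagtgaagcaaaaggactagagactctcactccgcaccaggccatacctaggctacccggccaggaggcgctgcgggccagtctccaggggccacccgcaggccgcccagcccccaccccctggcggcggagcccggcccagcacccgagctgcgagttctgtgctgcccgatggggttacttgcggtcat
Abcg1 intron 2: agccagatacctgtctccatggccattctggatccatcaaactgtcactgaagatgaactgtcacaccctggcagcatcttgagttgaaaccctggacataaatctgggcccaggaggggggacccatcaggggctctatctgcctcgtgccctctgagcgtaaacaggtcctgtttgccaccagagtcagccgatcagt
Abcg1 upstream: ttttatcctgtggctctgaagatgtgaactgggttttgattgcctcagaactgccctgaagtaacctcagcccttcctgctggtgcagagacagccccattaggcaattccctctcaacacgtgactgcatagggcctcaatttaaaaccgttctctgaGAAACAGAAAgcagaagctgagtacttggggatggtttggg
Gadd45b downstream: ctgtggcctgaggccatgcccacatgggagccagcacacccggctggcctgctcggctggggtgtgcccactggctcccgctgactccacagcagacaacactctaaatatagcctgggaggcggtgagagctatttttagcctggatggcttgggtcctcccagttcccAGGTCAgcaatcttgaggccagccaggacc
Il21r intron 7: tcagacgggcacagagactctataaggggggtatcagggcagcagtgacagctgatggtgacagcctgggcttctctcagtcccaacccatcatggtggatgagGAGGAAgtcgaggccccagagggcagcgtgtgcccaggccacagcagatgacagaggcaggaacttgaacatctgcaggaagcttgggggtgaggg
Nfkbia downstream: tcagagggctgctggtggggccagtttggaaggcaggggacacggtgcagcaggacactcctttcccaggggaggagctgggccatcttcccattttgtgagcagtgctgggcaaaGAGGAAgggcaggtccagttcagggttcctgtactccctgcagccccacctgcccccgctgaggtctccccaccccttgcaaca
The Abca1 and intronic Abcg1 windows held none of the 7 motifs. The upstream Abcg1 window held an IRF match, the Gadd45b window AGGTCA, and the Il21r and Nfkbia windows GAGGAA. Of the called lower regions not printed, the Csf3 window held none of the 7 motifs and the Pik3cb window GAGGAA. The printed windows do not stand for their sets: GAGGAA was in 43.1% of lower regions, against 31.8% of all searched. A match describes letters, not a bound site.

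Regions at Abca1 and at Abcg1, which code for cholesterol exporters, stood among the higher ones. The called Abca1 region (chr4:53158648-53158929, intron 1, 1.11 kb downstream of the transcription start site, TSS) held 78.0 and 57.6 tags per 10 M in NKO with KLA against 20.1 and 13.8 in WT with KLA. With Veh it held 73.0 and 64.4 in NKO and 20.2 and 32.6 in WT. All 4 NKO libraries thus lay above all 4 WT libraries, with or without KLA. The difference with KLA was 2.00 ± 0.31 on the log2 scale (SE, n = 2 and 2 in this and each later comparison, adjusted p = 0.000274), and with Veh it was 1.36 ± 0.29 (adjusted p = 0.00712). When the fit was centred the Veh difference was 1.07 and no longer called. The other Abca1 regions varied, and over the 6 tested the log2 difference ran from -0.14 to 2.00.

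Abcg1, which loads cholesterol onto high-density lipoprotein, had 2 called regions among 4 tested, all 4 with differences above 0. At the one in intron 2 (chr17:31066791-31067226) the values were 34.5 and 25 in NKO with KLA against 7.55 and 8.96 in WT with KLA, and 36.1 and 20.9 against 10.1 and 13.2 with Veh. Its log2 difference with KLA was 1.85 ± 0.45 (adjusted p = 0.0251). At the one 17.9 kb upstream of the TSS (chr17:31039659-31039925) they were 30.8 and 41.0 against 11.3 and 13.1 with KLA, and 44.2 and 32.5 against 21.4 and 15.3 with Veh. Its difference was 1.54 ± 0.39 (adjusted p = 0.0316). The genotypes did not overlap in either treatment. The Abca1 call held with each of the 8 libraries left out in turn, whereas the intronic Abcg1 call was lost with WT_Veh replicate 1 or any 1 of the 4 KLA libraries left out (adjusted p from 0.0516 to 0.189), and the upstream call with any 1 library left out other than those of NKO with Veh (0.0555 to 0.243).

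Scd2, a stearoyl-CoA desaturase and LXR target, had a region called with Veh and not with KLA. Its promoter-proximal region (chr19:44293786-44294157, 5' UTR) held 26 and 23.6 tags per 10 M in NKO with KLA against 6.92 and 16.5 in WT. With Veh it held 45.0 and 59.2 against 9.46 and 6.11. The difference with KLA (1.09 ± 0.42, adjusted p = 0.210) was not called, and that with Veh was (2.76 ± 0.42, adjusted p = 9.44e-05). The test of the change in that difference did not pass (interaction -1.66, adjusted p = 0.187, and -1.33, adjusted p = 0.511, when centred). A contrast between the treatments was thus not shown. All 3 tested Scd2 regions were above 0 with KLA (1.00 to 1.30).

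The list of LXR targets and fatty acid synthesis, 23 genes of which 17 had tested regions, held 38 regions. Of these 3 were called higher (the Abca1 region and both Abcg1 regions) and 0 lower, against 0.4% and 0.389% of all tested regions, with a median log2 difference of 0.24 against -0.04 over all tested regions, and 27 of 38 above 0. With Veh the median of the list was 0.63 against 0.30. Cholesterol synthesis and uptake, whose genes answer to SREBP2, had 22 regions, 0 called and a median of 0.17.

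Regions at Bhlhe41 and Irf1 were called higher. At Bhlhe41 (chr6:145862868-145863271, exon 5) the values were 89.7 and 106 in NKO with KLA against 40.2 and 26.2 in WT, a difference of 1.54 ± 0.26 (adjusted p = 0.000436), and all 4 tested regions of the gene were above 0. At the Irf1 promoter (chr11:53770348-53770668), a factor induced by interferon and NFκB, they were 193 and 169 against 88.0 and 66.2. This region differed from the exporters with Veh, where NKO held 51.6 and 42.9 against 59.9 and 51.9 in WT. The Irf1 difference was 1.23 ± 0.20 with KLA (adjusted p = 0.000274) and -0.24 ± 0.22 with Veh (adjusted p = 0.623). The interaction was 1.47 (adjusted p = 0.00747). Of the 3 tested Irf1 regions, 2 were above 0 and 1 below. Of 49 regions of interferon-stimulated genes the one at Irf1 was the single call, and their median was 0.10.

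Cebpa followed a further pattern. Its region (chr7:35117979-35118510, 1.05 kb upstream) held 38.8 and 49.3 tags per 10 M in NKO with KLA against 16.3 and 13.1 in WT with KLA, whereas Veh libraries held 130 and 117 in NKO against 85.7 and 61.1 in WT. Values were lower with KLA in both genotypes, and NKO lay above WT in each treatment. The difference with KLA was 1.56 ± 0.30 (adjusted p = 0.00267) and with Veh 0.76 ± 0.22 (adjusted p = 0.0664). The call was lost without NKO_KLA replicate 2 (adjusted p = 0.0750), and of the 3 tested Cebpa regions 2 were above 0 and 1 below. Of 62 regions of macrophage lineage genes this was the single call, and their median was -0.04.

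Tbl1xr1, whose product exchanges corepressors on nuclear receptors, was higher at intron 1 (chr3:22077298-22077528), with 77.5 and 75 in NKO with KLA against 45.9 and 27.6 in WT. The difference was 1.04 ± 0.24 (adjusted p = 0.0144). All 8 tested regions of the gene had differences above 0 (0.19 to 2.22). With WT_KLA replicate 2, NKO_KLA replicate 1 or NKO_KLA replicate 2 left out, the intronic call was lost (adjusted p = 0.249, 0.107 and 0.0932, and log2 difference 0.73 without the first). Over the list of the NCoR complex and its partners, 1 of 23 regions was called and the median was 0.19. The promoter of Ncor1 itself held 54.7 and 62.5 against 49.7 and 46.2 with KLA, a difference of 0.28 ± 0.25 (adjusted p = 0.684), and does not report on the deleted exons.

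A single region was called at Gadd45b and at Rhoc. The one 10.7 kb downstream of the TSS of Gadd45b, a stress-induced growth arrest gene (chr10:80940563-80941095), held 83.9 and 85.4 in NKO with KLA against 26.4 and 36.5 in WT, and 145 and 132 against 50.4 and 45.8 with Veh. The difference was 1.43 ± 0.23 with KLA (adjusted p = 0.000408) and 1.52 ± 0.21 with Veh (adjusted p = 3.53e-05). The 8 tested Gadd45b regions were mixed, with 5 above 0 and 3 below (-0.44 to 1.43). In intron 1 of Rhoc, a small GTPase of the cytoskeleton (chr3:104790651-104790901), it was 75.4 and 85.4 against 20.1 and 21.4. That difference was 1.95 ± 0.31 (adjusted p = 0.00031), with 3 of the 4 Rhoc regions above 0.

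Plk2, a kinase of the stress response, had a called promoter region (1.21 ± 0.24, adjusted p = 0.0034) and a called region 166 kb downstream (1.91 ± 0.39, adjusted p = 0.00462), and of its 7 tested regions 5 were above 0 and 2 below. The promoter call was lost without NKO_KLA replicate 1 (0.77, adjusted p = 0.247) and the distal one without WT_KLA replicate 1 (adjusted p = 0.0507). Egr3, an immediate early factor, had 1 called of 5 tested regions, all 5 above 0 (called region 1.74 ± 0.45, adjusted p = 0.0374). Klf9, which glucocorticoids induce, had 1 called of 5 tested, with 4 above 0 and 1 below (called region 2.09 ± 0.57, adjusted p = 0.0496). The Klf9 call was lost with each of the 8 libraries left out (adjusted p from 0.0542 to 0.323, and a difference of 2.87 without WT_KLA replicate 1), and the Egr3 call with 6 of 8, those other than NKO with Veh (0.0609 to 0.191).

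The remaining named regions above WT were those at Afdn (3.09), Sh3glb1 (2.11), 4930563H07Rik (1.83), Mir5131 (1.68, inside Ddhd1), Lancl2 (1.23), Cdc42bpb (1.20) and BC022687 (1.38 and 1.28, both inside Ahnak2). The Lancl2 call was lost without WT_KLA replicate 2 (0.90, adjusted p = 0.0718). The call at 1.38 of BC022687 was lost with any 1 of the WT or NKO_KLA libraries left out (adjusted p from 0.0550 to 0.239), and the one at 1.28 with any 1 of the WT libraries or NKO_KLA replicate 1 left out (0.0806 to 0.444, and 0.78 without the last). At the region of Mir5131 (chr14:45657136-45657805) the values were 226 and 206 in NKO with KLA against 79.2 and 55.1 in WT with KLA, and 64.9 and 62.7 against 54.8 and 38.2 with Veh, so NKO with KLA stood above the other 3 groups. The interaction there was 1.21 (adjusted p = 0.0308). G530011O06Rik, near the end of chromosome X, had 2 neighbouring called regions (2.19 and 1.14), which are uncertain because near-identical sequence on chromosome Y can share their reads. The second was lost without WT_KLA replicate 1 or either NKO_KLA library (adjusted p = 0.176, 0.0698 and 0.2).

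**Figure D2:**
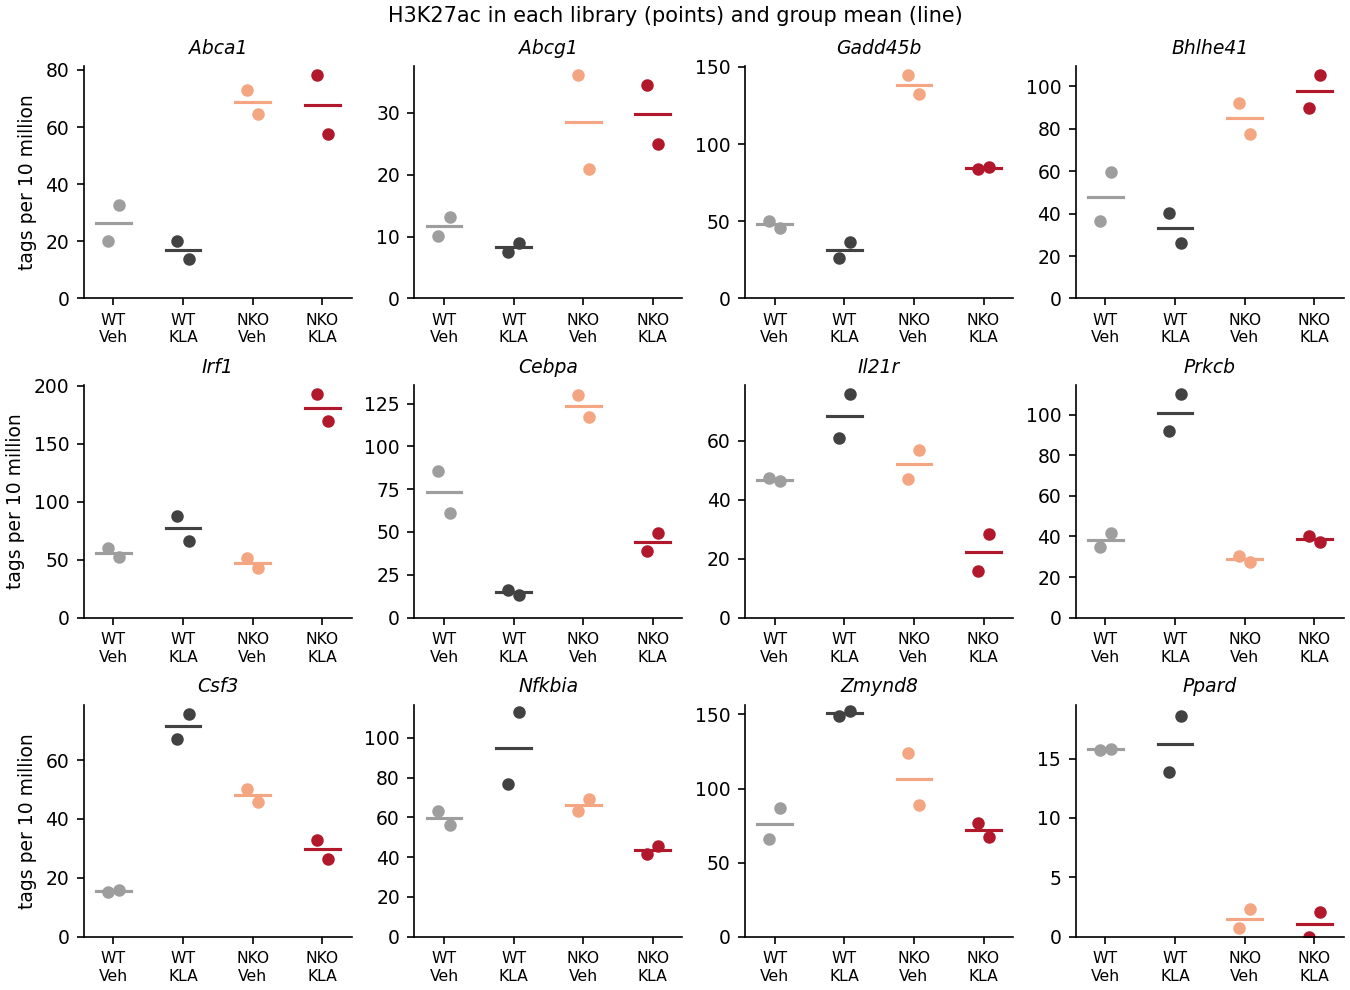
H3K27ac (tags per 10 M, axis from 0) in each of 8 libraries at 12 named regions, with points for libraries and lines for group means. At Abca1 both NKO groups (57.6 to 78.0) stand above both WT groups (13.8 to 32.6), and at Prkcb the libraries of WT with KLA (91.8 and 110) stand above the other 6.

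Il21r was called lower at 2 regions. Its promoter (chr7:125603309-125603650) held 15.9 and 28.5 tags per 10 M in NKO with KLA against 61.0 and 75.8 in WT with KLA. With Veh the genotypes were close, at 47.2 and 56.9 against 47.3 and 46.3. The difference with KLA was -1.65 ± 0.30 (adjusted p = 0.00128) and the interaction -1.81 (adjusted p = 0.0162).

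A further Il21r region in intron 7 (chr7:125630316-125630631) held 23.9 and 12.5 against 60.4 and 64.8 with KLA, and 11.1 and 12.8 against 25.2 and 31.1 with Veh. There NKO lay below WT in both treatments, with a difference of -1.75 ± 0.35 with KLA (adjusted p = 0.00393). Over the gene, 7 of 8 tested regions had differences below 0. The promoter call was lost without NKO_KLA replicate 1 (adjusted p = 0.0960) and the intronic call without NKO_KLA replicate 2 (adjusted p = 0.129).

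Prkcb was lower at all 7 of its tested regions in value (-1.52 to -0.37), and at 1 by the test. That region, in intron 1 (chr7:122289482-122290024), held 40.4 and 37.5 in NKO with KLA against 91.8 and 110 in WT with KLA, and 30.2 and 27.3 against 34.7 and 41.8 with Veh. Both libraries of WT with KLA lay above the other 6, but the interaction did not pass (-0.95, adjusted p = 0.233, and -0.61, adjusted p = 0.636, when centred). The difference was -1.37 ± 0.25 (adjusted p = 0.00186, and 0.0539 without NKO_KLA replicate 2). A region 43.2 kb upstream of Pik3cb, a catalytic subunit of PI3-kinase (inside Cep70), held 12.7 and 11.1 against 44.6 and 53.1, a difference of -2.02 ± 0.39 (adjusted p = 0.00283, and 0.0703 without NKO_KLA replicate 2).

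Among genes of the inflammatory response, regions of Csf3 and Nfkbia were called lower. The region assigned to Csf3 (chr11:98709196-98709506, in intron 19 of Med24) held 32.9 and 26.4 in NKO with KLA against 67.3 and 75.8 in WT with KLA. With Veh the order was opposite, at 50.1 and 45.9 in NKO against 15.1 and 15.8 in WT. The difference was -1.26 ± 0.29 with KLA (adjusted p = 0.0157), 1.63 ± 0.32 with Veh (adjusted p = 0.00263), and the interaction was -2.88 (adjusted p = 0.000152). The KLA call was lost without WT_KLA replicate 2 or either library of NKO with KLA (adjusted p = 0.128, 0.0674 and 0.169).

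The region 18.7 kb downstream of the TSS of Nfkbia (chr12:55473770-55474071) held 41.4 and 45.8 in NKO with KLA against 76.7 and 113 in WT, and 63.4 and 69.1 against 63.0 and 56.0 with Veh. Values were higher with KLA in WT and lower in NKO. The difference was -1.12 ± 0.24 (adjusted p = 0.00805). Without WT_KLA replicate 2 it was -0.82 (adjusted p = 0.221), and the call was also lost without NKO_KLA replicate 1 or replicate 2 (0.113 and 0.0743). Of the 6 tested Nfkbia regions, 4 were below 0 and 2 above.

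The counts over the lists are read against 0.4% of all tested regions called higher and 0.389% called lower, and with lists of this size a count of 0 or 1 does not set a list apart. Of 36 cytokine regions 1 was called (Csf3, lower), with a list median of -0.31, and of 63 regions 1 was called among NFκB subunits and inhibitors (Nfkbia, lower), with a median of 0.04. None of the 58 regions of the TLR4 pathway (median -0.22), the 19 of chemokines (0.25) or the 35 of prostaglandin and leukotriene synthesis (-0.28) was called. In the TLR4 list, regions at Socs1 (0.90), Tbk1 (0.49) and Socs3 (-0.68), named after their values were seen, passed the adjusted p but not the 2-fold minimum. Lists of AP-1 and immediate early factors (67 regions, 1 higher, Egr3), clock genes (38, 1 higher, Bhlhe41), other nuclear receptor targets (55, with Klf9 higher and Ppard lower), iron handling (24) and osteoclast genes (20) had medians of -0.10, 0.02, -0.09, -0.22 and 0.00, with no call in the last 2.

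The loci of Ptgs2 and Il12a, whose products are cyclooxygenase 2 and a subunit of interleukin 12, lay below WT without passing the test. At the Ptgs2 promoter the 2 NKO libraries with KLA held 10.1 and 13.9 and the WT libraries 28.3 and 28.3, with a difference of -1.24 ± 0.50 (adjusted p = 0.226) on 19 to 45 tags per library. At the Il12a region they held 15.9 and 11.1 against 18.9 and 24.1 (-0.65 ± 0.57, adjusted p = 0.677). At SEs of this size a 2-fold difference was not detectable. The region at Lyz2, the locus of the Cre allele, held 25 and 26.4 against 39.6 and 55.1 (-0.88 ± 0.33, adjusted p = 0.195). No called region lay within 5 Mb of Ncor1 or of Lyz2, where 98 regions were tested at each locus. The nearest were 7.23 Mb (Tnfsf12) and 9.09 Mb (Ppp1r12a) away. With 0.789% of all tested regions called, a count of 0 among 98 does not set either locus apart.

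At Ppard (chr17:28247689-28247959, intron 2) the mark was at or near 0 in every NKO library. NKO libraries held 0 and 3 raw tags with KLA, or 1 and 4 with Veh. WT libraries held 22 and 27 with KLA, or 25 and 31 with Veh. The difference was -4.02 ± 0.89 with KLA (adjusted p = 0.012) and -3.24 ± 0.82 with Veh (adjusted p = 0.0266). It rested on few tags. Without NKO_KLA replicate 1 the difference with KLA was -2.91 (adjusted p = 0.163), and without NKO_KLA replicate 2, which leaves the library at 0 tags, it was -7.75 (adjusted p = 0.0261), a fitted value that is no bound. The call was also lost without WT_KLA replicate 2 (0.0930) or either library of WT with Veh (0.0529 and 0.0535). At a region of Adcy9, named because both NKO libraries with KLA held 0 tags, WT with KLA held 10 and 8 tags. The WT level is 6.56-fold that of a floor of 3 tags over the NKO group. The floor allows for counting error in NKO alone, so this ratio is no bound on the difference. The region was called in 7 of 15 alternatives.

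The other named regions below WT were those at C130050O18Rik (-1.76, in an intron of 3110082I17Rik), Gm6994 (-2.44, inside Enox1), Ehbp1l1 (-1.39), 5830428M24Rik (-1.15), Sde2 (-1.11), Zmynd8 (-1.06), Zfp652os (-1.04) and Pldi (-1.04). At Zmynd8, which codes for a reader of acetylated histones (chr2:165855686-165856225), WT with KLA held 149 and 152 against 77.0 and 67.4 in NKO with KLA. With Veh, NKO held 124 and 88.8 against 66.2 and 86.6 in WT. The interaction was -1.52 (adjusted p = 0.0038).

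Several of these calls rested on single libraries. Without NKO_KLA replicate 2 those at Zmynd8 (-0.97, adjusted p = 0.0750), Gm6994 (-1.84, 0.129, and -3.83 without NKO_KLA replicate 1), Zfp652os (0.0609), Ehbp1l1 (0.0793), Sde2 (0.0781), 5830428M24Rik (0.0781) and Pldi (-0.94, under 2-fold) were lost. Without NKO_KLA replicate 1 those at C130050O18Rik (0.0552), Sde2 (0.0859), Ehbp1l1 (0.0589) and 5830428M24Rik (0.12) were lost. Without WT_KLA replicate 2 those at Ehbp1l1 (0.063), 5830428M24Rik (0.101) and Pldi (-0.87) were lost, and without WT_KLA replicate 1 that at Zfp652os (-0.95).

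To ask whether the genotypes already differed without KLA, the called regions were read in the 4 Veh libraries. These are not part of the difference with KLA. They did enter the filter on tags and the shared estimate of spread, so this reading is not fully independent of the call. With the 4 KLA libraries alone 106 regions were called, against 146. Of the 74 higher regions, 69 were above 0 with Veh, and the median was 0.78 against 0.30 over all tested regions (0.49 against 0.01 when centred). The libraries did not overlap, NKO above WT, at 62 of 74, against 41.5% of all tested regions (7.8% with NKO below), and 18 were called higher with Veh and 0 lower, against 0.973% and 0.027% of all tested. When centred, 4 were called (both G530011O06Rik regions, Oit3 and Gadd45b), against 0.135% higher and 0.0757% lower of all tested. In NKO with Veh 6.55 to 7.18% of tags fell in the regions, against 5.55 to 5.66% in WT with Veh, and the part of this in the Veh differences was not tested. With KLA the genotypes were close in this respect, at 6.20 to 6.25% and 6.20 to 6.70%. The 5 regions below 0 with Veh were those at Irf1, Ncaph, Fam20c, Endod1 and Cc2d2a (-0.38 to -0.08).

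The 72 lower regions lay on both sides of 0 with Veh. Their median was 0.15 against 0.30 over all tested regions (-0.14 against 0.01 when centred). Of the 72, 42 were above 0 and 30 below, and 1 was called in each direction (Csf3 higher, Ppard lower). The Veh libraries did not overlap, NKO below WT, at 14 of 72 (19.4%), against 7.8% of all tested regions. With NKO above WT this was so at 27 (37.5%), against 41.5%. Groups with KLA that did not overlap made up 19.2% of all tested regions with NKO above and 22.6% with NKO below, and all 74 and all 72 called regions were of this kind, in the libraries on which they were called.

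**Figure D3:**
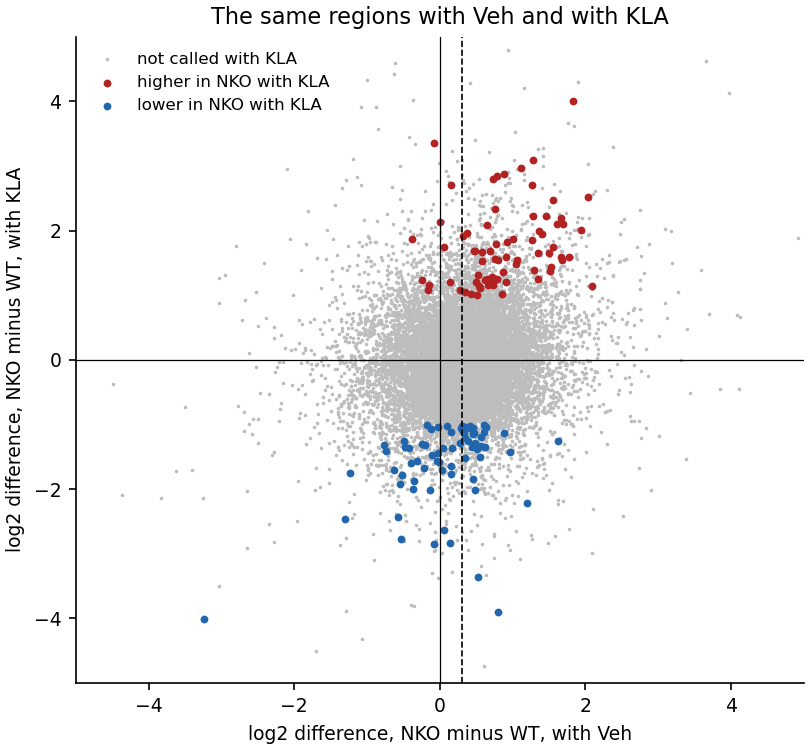
Log2 difference NKO minus WT with Veh (horizontal, dashed line at the median of 0.30) against that with KLA (vertical), 1 point per tested region. The 74 higher regions (red) lie mostly right of 0 with Veh, the 72 lower regions (blue) lie on both sides, and 34 regions (1 called) fall outside the axes at 5.

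Whether the difference with KLA departed from that with Veh was tested as an interaction. Of all tested regions 0.027% were called in the positive and 0.67% in the negative direction, and 24 of the 72 lower regions were among the latter. They included Csf3, Pik3cb, C130050O18Rik, Ehbp1l1, the Il21r promoter, Pldi, Zmynd8 and Nfkbia, and, named after their values were seen, regions at Itgb2 (-1.77), the integrin β chain of leukocytes, C5ar1 (-1.76), the receptor for complement C5a, and Ctsd (-1.56), a lysosomal protease. Of the 74 higher regions 3 were called, all positive (Irf1, Mir5131 and Cc2d2a). When the fit was centred, which moved the median interaction from -0.34 to 0.00, 4 of the 72 lower regions were called (Csf3, Tln2, Pldi and Zmynd8) and 2 of the higher (Irf1 and Mir5131), against 0.027% and 0.0432% of all tested. The interaction shares its KLA libraries with the call.

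Within each genotype, KLA and Veh were set side by side. Of the 72 lower regions, 45 (62.5%) had a higher mean with KLA in WT and a lower one in NKO, against 27.1% of all tested regions. Of the 74 higher regions, 42 had lower means with KLA in both genotypes, and 21 had a lower mean in WT and a higher one in NKO, against 34.2% and 8.28% of all tested. The median KLA response of the higher regions was -0.90 in WT and -0.10 in NKO, and that of the lower regions 0.56 in WT and -0.94 in NKO. These responses share the KLA libraries with the call.

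The response to KLA was therefore also read in other libraries, those of WT cells given DMSO with KLA or Veh. Windows of 1000 bp with centres within 500 bp were used. Of the 74 higher regions 47 had one, and of the 72 lower regions 59. Higher regions without one, here and in the next comparisons, included Mir5131, Irf1, Rhoc, Gadd45b, Bhlhe41, Cebpa and those at Abcg1 and G530011O06Rik. Lower regions without one included Csf3, Prkcb and Ppard. The medians below leave these out. At the higher regions the median log2 response to KLA was -1.02 against -0.24 over the 14125 tested regions with a window, and 24 of 47 were called lower and 2 higher, against 21% and 6.92%. The most negative responses were at Tpra1 (-4.35), Il6st (-3.05) and Gdap10 (-2.86), named after their values were seen, and Klf9 stood at -2.49. At the lower regions the median was -0.22, with 12 called lower and 6 higher. Scaling with TMM, edgeR's trimmed mean normalisation, moved the medians to -0.60, 0.20 and 0.19 for higher, lower and all regions. It moved the calls among all to 12% lower and 13.9% higher, and those of the higher regions to 14 lower and 3 higher. Those of the lower regions moved to 7 lower and 12 higher.

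Inhibition of HDAC3 was compared at the same regions in WT cells given KLA with RGFP966, an HDAC3 inhibitor, or with DMSO. At the higher regions the median log2 difference was 0.85 against -0.16 over all regions with a window, and 20 of 47 were called higher and 0 lower, against 15.5% and 15.6%. They included Klf9 (2.35 ± 0.27, adjusted p = 1.5e-15), Egr3 (1.82 ± 0.23, adjusted p = 1e-13) and the distal Plk2 region (1.60 ± 0.25, adjusted p = 2.4e-09). The NKO calls at Klf9 and Egr3 were lost in 8 and 6 of 8 refits with a library left out. At Abca1 the difference was -0.59 ± 0.22 (adjusted p = 0.0132), below 0. Abca1 is among the 11 higher regions called in each of 15 alternatives. Others of these with a window were Cdc42bpb (-0.54), 4930563H07Rik (-0.32), Afdn (0.33) and Sh3glb1 (0.92). Each of them, Abca1 included, was under 2-fold. With TMM the medians were 0.52 and -0.50, with 9 called higher and 1 lower (Fam20c), against 8.54% and 30.2%. At the 59 lower regions the median was 0.05 (-0.29 with TMM), with 7 called higher and 4 lower (2 higher and 8 lower with TMM). The comparison uses the same DMSO and KLA libraries as the KLA response above and is not independent of it.

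Loss of PGC1β, a coactivator with which NCoR was studied in this series, was compared as Pgc1b flox Cre against Pgc1b flox BMDMs with KLA. The Cre was LysMCre, as in NKO, and the Pgc1b flox group lacked it. Deletion and the Cre allele therefore cannot be told apart in either comparison. At the lower regions the median log2 difference was -0.75 against -0.42 over 14131 regions with a window, and 18 of 59 were called lower and 0 higher, against 7.17% and 0.375%. They included C130050O18Rik (-1.11) and Ehbp1l1 (-1.08). At the higher regions the median was -0.44, with 5 called lower and 1 higher. With TMM the medians were -0.35, -0.05 and -0.03 for lower, higher and all regions, and 4 of 59 lower regions were called lower (Slc7a15, Naip2, Por and Fli1) and 3 of 47 higher regions higher (Cc2d2a, Med21 and Tpra1), against 1.21% and 1.24%.

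**Figure D4:**
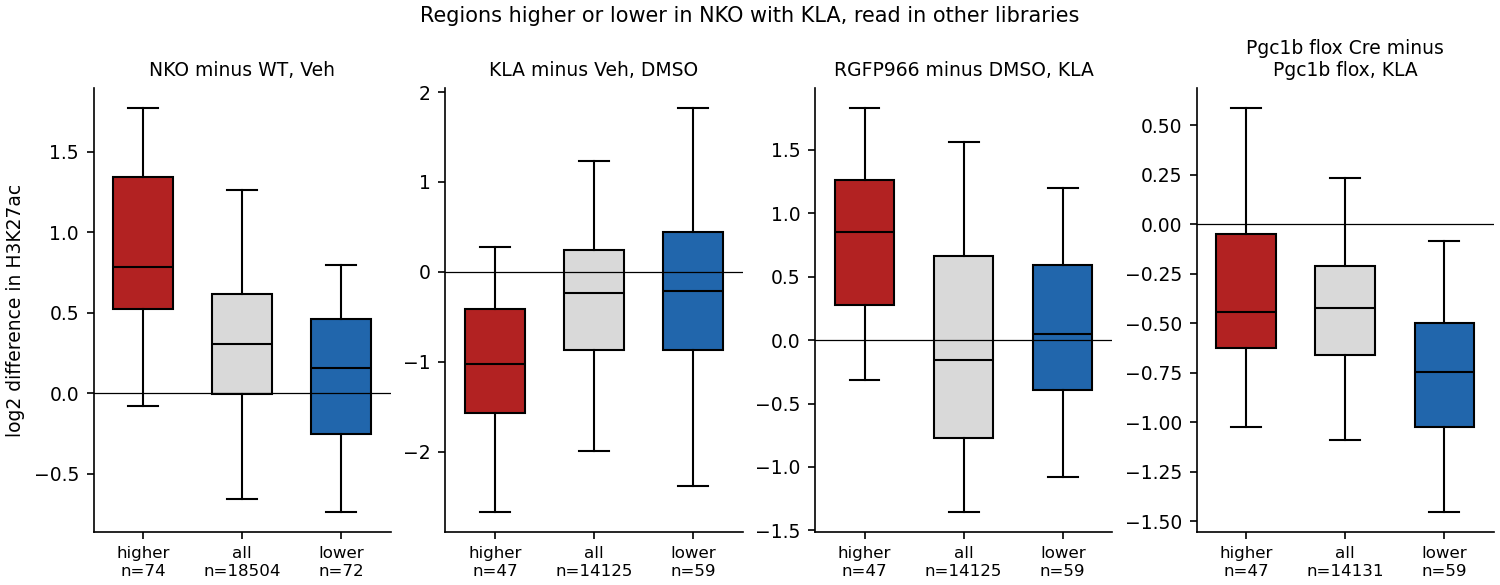
Log2 differences in H3K27ac for 4 comparisons (panels) at regions higher in NKO with KLA (red), all tested regions (grey) and regions lower in NKO (blue), as median, quartiles and 5th to 95th percentiles. Red boxes lie above grey with Veh (medians 0.78 and 0.30) and with RGFP966 (0.85 and -0.16), and below grey for KLA with DMSO (-1.02 and -0.24), whereas blue lies below grey for Pgc1b flox Cre (-0.75 and -0.42).

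By position, 66.2% of higher and 70.8% of lower regions lay more than 2 kb from a TSS, against 46.5% of all tested. Promoters made up 18.9% and 19.4% against 41.0%. The higher regions were more often intergenic (47.3% against 26.4% of the lower and 22.3% of all) and the lower more often intronic (48.6% against 24.3% and 30.6%).

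Peaks of factors in WT cells, with centres within 500 bp, were counted next. Called regions had more of the mark than all tested, with medians of 36.9 (higher) and 36.4 (lower) against 19.9 tags per 10 M. They also lay more often away from a TSS. The shares of peaks, and of motifs below, were not matched for level or position, and the part of these was not tested. HDAC3 peaks accompanied 68 of 72 lower regions (94.4%) and 54 of 74 higher regions (73.0%), against 72.8% of all tested. Peaks of NCoR accompanied 88.9% and 79.7% against 74.7%, those of p300, an acetyltransferase, 91.7% and 75.7% against 72.4%, those of p65, a subunit of NFκB, 87.5% and 77.0% against 71.6%, and those of PGC1β 75% and 66.2% against 59.3%. All 5 factors had a peak at 68.1% of lower and 54.1% of higher regions, against 45.6%. The order held at 1000 bp, while at 100 bp the shares of the higher regions lay below those of all tested (for NCoR 52.7% against 60.7%). The regions lacking an HDAC3 peak included those at Bhlhe41, Cebpa, Klf9 and Mir5131.

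**Figure D5:**
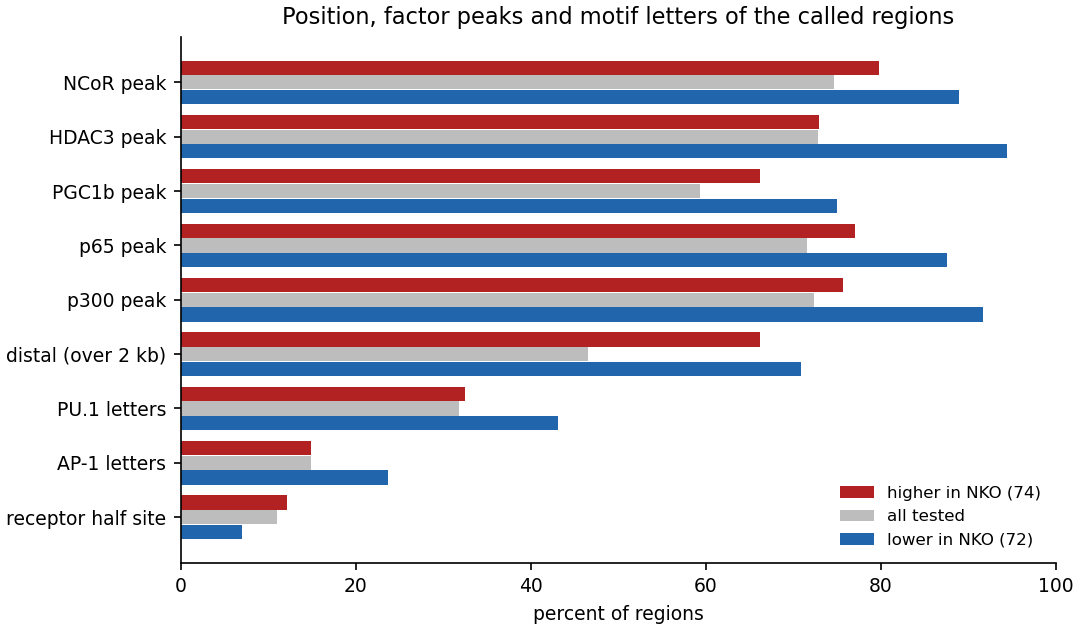
Percent of regions with a factor peak within 500 bp, lying over 2 kb from a TSS, or holding motif letters, for higher (red), all tested (grey) and lower (blue) regions. Lower regions have the longest bars for each of the 5 factors, led by HDAC3 at 94.4%.

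Motif letters were searched on both strands in the central 200 bases. GAGGAA of PU.1, the lineage factor of macrophages, was in 43.1% of lower and 32.4% of higher regions against 31.8% of all 18390 regions searched. TGANTCA of AP-1 was in 23.6% and 14.9% against 14.9%, and AGGTCA in 6.94% and 12.2% against 11%. TTGCNNCAA of C/EBP and the NFκB and IRF motifs (by their consensus) were each in at most 3 regions of either set. The DR4 element, a pair of receptor sites spaced for LXR, was in 0 of 146 called regions and in 17 of all searched. Motifs can overlap, and the absence of letters says nothing on binding elsewhere in a region.

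The cells had the mark at regions of all 11 macrophage markers examined, with summed levels of 1124 to 1282 tags per 10 M in NKO and 1192 to 1341 in WT with KLA. Markers of neutrophils, which LysMCre also targets, summed to 12.2 to 14.6 in NKO and 16.3 to 27.6 in WT, and the 6 B cell markers had no region. Sums for dendritic cell markers were 14.3 to 20.8 against 9.65 to 10.1, for endothelial 206 to 239 against 241 to 286, for erythroid 45.8 to 48.3 against 49.0 to 49.6, for fibroblast 12.5 to 19.6 against 19.3 to 20.8, and for T or NK cell 56.8 to 101 against 62.9 to 86.2. A region was present at 3 of 10 neutrophil, 4 of 6 dendritic cell, 1 of 7 fibroblast and 2 of 5 erythroid markers. The same held for 3 of 4 endothelial and 4 of 8 T or NK cell markers. Camp made up most of the neutrophil sum, with 12.2 and 12.5 in NKO against 10.7 and 26.2 in WT. The dendritic cell marker Flt3 held 1.59 and 12.5 against 1.26 and 2.07. The part of other cell types in the differences was not tested. In bulk chromatin fewer cells of a type and less of the mark per cell cannot be told apart.

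The 4 libraries with KLA held 14.4 to 18.8 M tags. The call count rested on single libraries: it was 40 without NKO_KLA replicate 2, and 65, 66, 66 and 74 without WT_KLA replicate 2, NKO_KLA replicate 1, WT_Veh replicate 1 and WT_Veh replicate 2. Across 15 alternatives, 11 higher regions and 0 lower regions were called in each. The 15 are those listed under the processing, other than distal regions and no fold minimum. The fit to distal regions leaves out those within 2 kb of a TSS, such as the ones at Abca1 and Irf1. These 11 were Mir5131, the first G530011O06Rik region, Abca1, Irf1, Rhoc, Gadd45b, Bhlhe41, 4930563H07Rik, Sh3glb1, Afdn and Cdc42bpb.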

How the data were processed

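H3K27ac ChIP-seq tags of WT and NKO BMDMs with Veh or KLA were deposited by the authors as raw counts per region and library, unnormalised. Per the labels, the study's methods and the file headers, the authors aligned reads to mm10 with Bowtie2, built HOMER tag directories and counted with at most 3 tags per position in ATAC-seq peaks as given (in windows of 1000 bp for the RGFP966 and Pgc1b tables). Versions are not given in the sources used here. Deposited counts were scaled by the library totals in the headers (13.6 to 19.6 M in the 8 libraries) and printed as tags per 10 M.

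Regions with 16 or more tags in at least 1 library were fitted with edgeR 4.0.16 in R 4.3.3 (quasi-likelihood F-test, two-sided, 4 group means, 8 libraries sharing 1 estimate of spread). Calls required a Benjamini-Hochberg adjusted p under 0.05 over all tested regions and more than 2-fold. The SE is the log2 difference divided by the square root of F. Factor peaks were used by position. Separate fits gave the RGFP966 (6 libraries) and Pgc1b (8 libraries) comparisons. The fit was tested on simulated data. The labels state biological replicates. No replicate pair was closer than sampling noise (chi-square per region 1.94 to 3.21). Replicates correlated at Pearson's r of 0.866 to 0.911 across regions. Same-numbered libraries did not deviate together, so numbers were not taken as pairs. NKO_KLA replicate 1 is the only one of the 8 whose header lacks the lane suffix.

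Named regions were the 12 lowest p-values in each direction (1 per nearest gene), called regions of listed genes, genes with 2 or more called regions, and the region with most tags at Ptgs2, Cp, Il12a, Abca1, Scd2, Ncor1 and Lyz2. Cp had no region. The names of the regions that rose with KLA and DMSO are not reported here. Nearest genes are those of the table. The members, lists and motifs were chosen with earlier results of these data known. Alternatives were TMM, centring by DESeq2 size factors, DESeq2 1.42.0, other filters, distal regions, a replicate block, no fold minimum, the KLA libraries alone and each library left out. Summaries used Python 3.11.15 and pandas 2.3.3. Of 14174 start sites checked, 87.7% lay within 300 bp of RefSeq's on GRCm38.p6. Counting error alone underlies the floor of 3 tags.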

Additional observations from a re-analysis of the deposited data

Results flagged for a closer look

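The difference between NKO and WT with KLA departed from that with Veh at 129 regions in the test of the interaction (edgeR, adjusted p under 0.05, more than 2-fold). The named regions among them are given here with their interaction on the log2 scale, the KLA difference minus the Veh difference.

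Below 0 were Csf3 (-2.88), Pik3cb (-2.50), C130050O18Rik (-1.91), Ehbp1l1 (-1.90), the Il21r promoter (-1.81), Pldi (-1.67), 5830428M24Rik (-1.61), Zmynd8 (-1.52), Sde2 (-1.43), Zfp652os (-1.39) and Nfkbia (-1.28). Above 0 were Irf1 (1.47) and Mir5131 (1.21). When the fit was centred on the median region, Csf3, Pldi, Zmynd8, Irf1 and Mir5131 still passed (adjusted p = 0.00112, 0.00132, 0.0441, 0.00112 and 0.00615), and the other 8 did not (0.0706 to 0.294).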

How the results depend on the processing

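The count of 146 regions with KLA was 106 to 217 under the alternatives other than a left-out library, with the replicate block at 123. It ranged from 40 to 184 with 1 library left out. With TMM it was 94 higher and 62 lower, against 74 and 72. Calls with Veh (185) moved to 40 with TMM, 39 when centred, 32 with DESeq2 and 300 without a fold minimum, to 168 with the replicate block, and to between 8 and 288 with 1 library left out. Calls of the interaction (129) moved to 13 with TMM, 13 when centred, 15 with DESeq2, 213 without a filter, 74 for distal regions, 114 with the replicate block, and 7 to 242 with 1 library left out. The Pgc1b comparison gave 1894 calls and 751 with TMM. For KLA with DMSO, calls were 1686 higher and 7038 lower, and 3124 and 4316 with TMM. For RGFP966 they were 6749 and 2388, and 4031 and 4742 with TMM. No refit turned the direction of a named region, and 81 refits lost a call while 518 kept the outcome of the main fit. The 518 overstate how well the calls held. They include 43 without a fold minimum, which reuse the main fit. They also include refits of the regions at Ptgs2, Il12a, Scd2, Ncor1 and Lyz2, which had no call to lose. Beside those with a library left out, the losses were Pldi under TMM, centring and DESeq2 (each -0.99, just under 2-fold), BC022687 under the replicate block (adjusted p = 0.0563) and Klf9 under the block (0.0563) and DESeq2 (0.0543). Deviations of same-numbered libraries did not correlate (r from -0.0127 to 0.00209), and the replicate block changed no other named call. At this depth, with 2 libraries per group, changes of 2-fold among the regions with the lowest levels (median SE 0.74) could not be called.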
